A study of Mus musculus with 14 samples.

Results

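The 10 genes described here encode mouse Toll-like receptors, the pattern recognition receptors of innate immune cells, and were taken by symbol (Tlr1, Tlr2, Tlr3, Tlr4, Tlr5, Tlr6, Tlr7, Tlr8, Tlr9 and Tlr13) from 2 expression tables. All 10 were found in both tables, among 24980 genes in the table of dendritic cells and 17118 in the table of monocytes and macrophages. Bulk RNA sequencing was done on populations sorted by flow cytometry from mouse bone marrow, in 14 libraries used here. Dendritic cells (CX3CR1-GFP high, MHC class II high, CD11c high, Gr-1 and B220 negative) came from mice given 1 dose of the TLR1/2 agonist PAM3CSK4, a synthetic lipopeptide (4 libraries), or vehicle alone (4 libraries). Macrophages (GFP negative, MHC class II high, CD169 positive, Gr-1 and B220 negative, 3 libraries) and monocytes (GFP high, CD115 positive, B220 negative, Gr-1 low and high together, 3 libraries) were taken at baseline. The sorted marrow came from mice with GFP in 1 copy of the chemokine receptor gene Cx3cr1 (Cx3cr1 gfp/+), an allele that all groups share, while the design text calls the treated mice wild type. Dose, time after dosing, age and sex are not given in the labels, and the labels do not tie libraries to mice. The p-values below therefore reflect library-to-library variation, part of which may be technical.

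Toll-like receptors bind conserved microbial molecules with a horseshoe of leucine-rich repeats and signal through a cytoplasmic TIR domain. Those at the cell surface bind lipids and proteins of microbes. TLR2 binds lipopeptides as a pair with TLR1 or TLR6, TLR4 binds lipopolysaccharide and TLR5 binds flagellin. Those in endosomes bind nucleic acids: TLR3 double-stranded RNA, TLR7 and TLR8 single-stranded RNA, TLR9 unmethylated CpG DNA and TLR13 bacterial ribosomal RNA. All but TLR3 signal through the adaptor MyD88, and TLR3 uses TRIF, the product of Ticam1. The surface group here was Tlr1, Tlr2, Tlr4, Tlr5 and Tlr6 and the endosomal group was Tlr3, Tlr7, Tlr8, Tlr9 and Tlr13.

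The genes lie on 7 chromosomes of the mouse mm10 genome, the build named in the submitters' processing notes. Positions are those deposited with the values, and exon counts are from the GENCODE annotation of that build. Tlr1 (chr5:64924680-64933559) and Tlr6 (chr5:64952030-64960097) are neighbours on the minus strand of chromosome 5. Tlr8 (chrX:167241123-167264330) and Tlr7 (chrX:167304926-167330572) are neighbours on the minus strand of the X chromosome, and Tlr13 (chrX:106143275-106160494) lies elsewhere on it, on the plus strand. Tlr2 (chr3:83836272-83841609) and Tlr3 (chr8:45395665-45410620) lie on the minus strand, and Tlr4 (chr4:66827551-66846582), Tlr5 (chr1:182954788-182976045) and Tlr9 (chr9:106222598-106226877) on the plus strand. The whole coding sequence lies in 1 exon in Tlr1, Tlr2 and Tlr6, in 2 in Tlr5, Tlr7, Tlr8, Tlr9 and Tlr13, in 3 in Tlr4 and in 4 in Tlr3.

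Tlr1 and Tlr6 are near-identical over part of their coding sequence, which bears on how their reads can be assigned. Of all 50-base windows of the coding sequence, Tlr1 shared 454 (19.4% of its own) with Tlr6, which is 19.2% of those of Tlr6, and no other pair of the 10 genes shared any. The longest identical run has 229 bases and lies inside the coding exon of each gene. It is shown because a read that falls within it fits both genes equally. It spans coding bases 1468 to 1696 of 2385 in Tlr1 and 1507 to 1735 of 2418 in Tlr6, and is given 5′ to 3′ on the coding strand of mm10.
Tlr1, chr5:64925537-64925765, minus strand, and Tlr6, chr5:64953828-64954056, minus strand: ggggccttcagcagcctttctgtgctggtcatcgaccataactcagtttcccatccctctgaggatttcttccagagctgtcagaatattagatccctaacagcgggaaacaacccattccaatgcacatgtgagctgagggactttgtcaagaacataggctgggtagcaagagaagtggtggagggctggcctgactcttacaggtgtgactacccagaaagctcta

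The deposited values showed how these reads had been treated. Values are CPM, read counts scaled to a library total, in whole multiples of a step of about 1 read where reads were counted whole. In the table of monocytes and macrophages, 8 members fell on whole steps, within 0.1 of a step, in all 6 libraries, and Tlr1 and Tlr6 did so in only 2 each. Their sum fell on whole steps in 6 of 6 libraries. In the table of dendritic cells, Tlr2, Tlr4, Tlr5, Tlr9 and Tlr13 fell on whole steps in 8 of 8 libraries and Tlr1, Tlr3, Tlr6, Tlr7 and Tlr8 did not. There the sum of Tlr1 and Tlr6 did so in 2 of 8 libraries. These 5 are the members with more than 1 curated RefSeq transcript, and their values in that table may hold part of the reads of the gene, which was not tested.

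Promoter windows are shown for 4 members, those that the tests below single out in macrophages and monocytes with calls that held in every setting tried and that RefSeq's GRCm38.p6 promoter table holds with a match to a motif. Each runs from 250 bases before the start of the transcript to 50 bases after it, 5′ to 3′ on the strand of the gene, and capitals mark matches to the motifs searched.
Tlr2, chr3:83841559-83841858, minus strand: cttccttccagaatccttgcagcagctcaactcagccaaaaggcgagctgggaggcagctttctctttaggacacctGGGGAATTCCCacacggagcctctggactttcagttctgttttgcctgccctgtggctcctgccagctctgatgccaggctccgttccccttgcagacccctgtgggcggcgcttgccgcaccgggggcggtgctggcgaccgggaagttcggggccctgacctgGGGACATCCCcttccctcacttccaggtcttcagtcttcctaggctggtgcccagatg
Tlr3, chr8:45410331-45410630, minus strand: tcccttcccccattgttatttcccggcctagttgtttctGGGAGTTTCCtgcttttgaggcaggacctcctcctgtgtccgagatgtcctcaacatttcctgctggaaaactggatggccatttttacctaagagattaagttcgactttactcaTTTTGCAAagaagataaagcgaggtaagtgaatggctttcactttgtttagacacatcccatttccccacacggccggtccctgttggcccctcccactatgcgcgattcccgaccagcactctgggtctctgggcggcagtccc
Tlr8, chrX:167264280-167264579, minus strand: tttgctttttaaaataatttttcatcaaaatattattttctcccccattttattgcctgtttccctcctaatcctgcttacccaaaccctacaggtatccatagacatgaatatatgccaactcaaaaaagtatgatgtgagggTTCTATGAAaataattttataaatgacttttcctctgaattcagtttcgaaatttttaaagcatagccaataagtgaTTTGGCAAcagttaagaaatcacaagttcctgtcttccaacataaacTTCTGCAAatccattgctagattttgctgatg
Tlr13, chrX:106143025-106143324, plus strand: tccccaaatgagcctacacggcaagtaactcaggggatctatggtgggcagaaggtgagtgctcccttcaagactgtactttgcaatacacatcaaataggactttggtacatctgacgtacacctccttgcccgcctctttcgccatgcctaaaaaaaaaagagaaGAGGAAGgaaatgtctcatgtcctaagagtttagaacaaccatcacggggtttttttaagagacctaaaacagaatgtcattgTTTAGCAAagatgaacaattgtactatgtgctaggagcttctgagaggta
The motifs were searched on both strands in the 10 windows that the table holds for 8 of the 10 members, Tlr4 and Tlr7 having none in it. They were the IRF element (searched by its tandem consensus), found in 3.44% of all 32851 promoter windows, the PU.1 core GAGGAAG in 13.6%, the AP-1 element TGANTCA in 7.81%, the C/EBP element TTNNGCAA in 10.8%, the STAT element TTCNNNGAA in 8.3%, and the NF-kB element in 4.51%. The Tlr2 window holds 2 overlapping NF-kB matches that begin 173 and 172 bases upstream of the start and another 8 bases upstream. The Tlr3 window holds an NF-kB match 211 bases upstream and a C/EBP match 95 bases upstream. The Tlr8 window holds a STAT match 106 bases upstream and C/EBP matches on either side of the start, and the Tlr13 window a PU.1 core 83 bases upstream and a C/EBP match at the start itself. The window of Tlr5, a member whose call also held in every setting, has no match and is not shown. Of the 10 windows, 4 held a C/EBP match, 3 a STAT match and 3 a PU.1 core. An NF-kB match was in 2, an IRF match in 1 and an AP-1 match in 1. These matches are descriptions of the letters and not of binding.

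Before the results, the libraries that stood apart are named. PAM3CSK4 replicate 4 correlated with the other PAM3CSK4 libraries at r = 0.879 to 0.894, and the vehicle libraries with one another at 0.946 to 0.971 (Pearson, over genes). Its 6 dendritic cell markers summed to 261 CPM, against 1320 to 1896 CPM in the other PAM3CSK4 libraries and 2935 to 4115 CPM with vehicle, and its 10 neutrophil markers to 11432 CPM, against 506 to 1531 CPM and 413 to 819 CPM. Macrophage libraries held macrophage markers at 205 to 316 CPM over 9 genes, a range that overlaps the 89.6 to 286 CPM of the monocyte libraries. Of these 9, Vcam1, Mertk and Spic passed the test below as higher in macrophages, Adgre1 as lower, and 5 did not pass. Monocyte markers summed to 328 to 807 CPM over 7 genes in macrophage libraries and to 7253 to 8766 CPM in monocyte libraries. Siglec1, the gene of the sorting marker CD169, was at 18.9, 18.6 and 25.2 CPM in macrophage replicates 1 to 3, against 34.7, 2.20 and 14.1 CPM in monocyte replicates 1 to 3, and did not separate the groups. Plasma cell markers, a further population, summed to 514 to 7945 CPM over 6 genes in macrophage libraries and to 104 to 130 CPM in monocyte libraries. The 6 markers of T and NK cells summed to 94.4 to 266 CPM in macrophage libraries and 10.4 to 22.6 CPM in monocyte libraries, and the 7 erythroid markers to 60.9 to 514 CPM and 1.81 to 49.2 CPM. The part of these populations in the results was not tested. One step was worth 1/28.2 to 1/75.2 CPM, and the listed genes summed to between 350368 and 578711 CPM in each library.

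PAM3CSK4 was followed by a lower level of 1 receptor gene of the 10, the double-stranded RNA receptor Tlr3, in dendritic cells, and no surface receptor passed the test in either direction. Tlr3 had 3.67, 3.08, 3.59 and 0.448 CPM in PAM3CSK4 replicates 1 to 4, against 7.33, 13.2, 20.7 and 10.5 CPM in vehicle replicates 1 to 4. Every PAM3CSK4 library was below every vehicle library. The mean fell to 2.70 ± 1.52 CPM with PAM3CSK4, against 12.9 ± 5.68 CPM with vehicle (SD, n = 4 each), a log2 change of -1.97 ± 0.41 (SE, limma on log2(CPM + 1), adjusted p = 0.0197 over 11377 genes tested). Changes on this scale understate those of genes with low values. Over all genes tested, 2.82% were called higher and 2.29% lower, so 1 of 10 members called is to be read against 5.12% of all genes. Calls were higher in 55.2% of cases as deposited, and in 41.5%, 29.9% and 35.1% with values rescaled to a common total, centred on the median or quantile normalized. Groups that did not overlap were found in 14.8% of all genes, 10.1% with PAM3CSK4 higher and 4.68% with PAM3CSK4 lower.

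Leaving out PAM3CSK4 replicate 4, the lowest, gave a log2 change of -1.56 for Tlr3 (adjusted p = 0.00702). The call was lost without vehicle replicate 2 (adjusted p = 0.0633) or vehicle replicate 3 (0.0642), and with no filter on low values (0.179). Beside Tlr3, the 6 dendritic cell markers summed lower in all 4 PAM3CSK4 libraries (261 to 1896 CPM) than in any vehicle library (2935 to 4115 CPM). Of these, Cd209a, Clec10a and Zbtb46 passed the test as lower (limma adjusted p = 3.71e-05, 0.000303 and 0.0313). H2-Ab1, with the largest means (885 CPM with PAM3CSK4 and 2504 CPM with vehicle), did not pass (0.0635). Flt3 (0.212) and Itgax (0.49) did not pass either. Itgax ranged from 27.5 to 283 CPM with PAM3CSK4 and from 170 to 271 CPM with vehicle. The 7 monocyte markers also summed lower in every PAM3CSK4 library (726 to 1170 CPM) than in any vehicle library (1428 to 2213 CPM). Among them, Ccr2 and Fn1 passed as lower (limma adjusted p = 0.00896 and 0.0112). Csf1r (0.247), F13a1 (0.219) and Cx3cr1 (0.644) had negative log2 changes that did not pass. Vcan and Ly6c2 went the other way (log2 change 0.91 and 0.59), without passing (0.365 and 0.569). The 6 markers of cDC1, the cross-presenting dendritic cell subset in which mouse Tlr3 is known to be abundant, summed to 396 to 1116 CPM with PAM3CSK4 and 889 to 1486 CPM with vehicle, with none at 0. Of these, Clec9a had 17.7, 6.67, 9.54 and 0.830 CPM in PAM3CSK4 replicates 1 to 4, against 26.7, 29.4, 40.0 and 20.9 CPM in vehicle replicates 1 to 4 (log2 change -2.02, adjusted p = 0.0559). Xcr1 had 2.40, 3.86, 4.86 and 0.230 CPM with PAM3CSK4, against 2.15, 7.07, 9.63 and 7.76 CPM with vehicle (adjusted p = 0.199). None of the 6 cDC1 markers passed the test (limma adjusted p = 0.0559 to 0.657). Fewer cells of a type and less RNA per cell cannot be told apart in bulk libraries, and the part of these markers in the Tlr3 result was not tested.

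**Figure D1:**
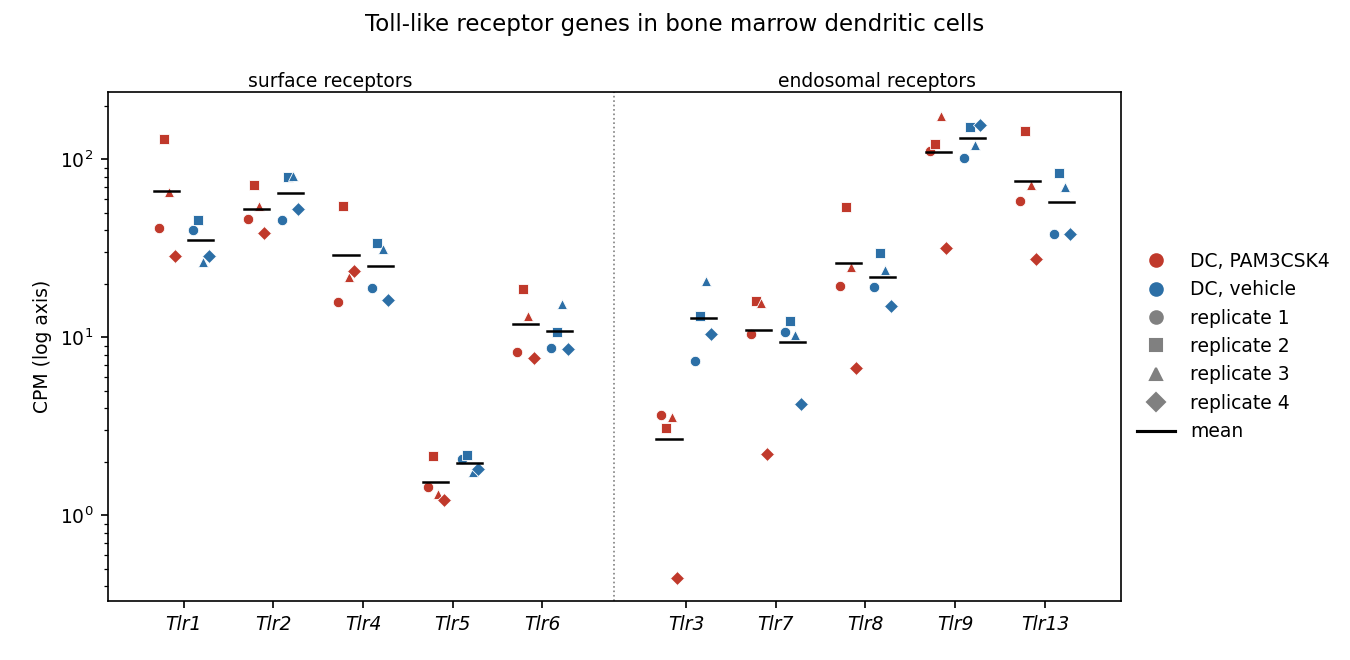
CPM (log axis) of the 10 receptor genes in dendritic cells, with PAM3CSK4 libraries left of vehicle libraries, marker shapes for replicates and a bar at each mean. Tlr3 is the gene whose 4 PAM3CSK4 points (0.448 to 3.67 CPM) lie below all 4 vehicle points (7.33 to 20.7 CPM).

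The receptors of the agonist itself kept overlapping ranges. Tlr2, the subunit common to both lipopeptide receptors, had 46.2, 71.8, 54.6 and 38.4 CPM in PAM3CSK4 replicates 1 to 4, against 45.9, 79.2, 80.6 and 52.8 CPM in vehicle replicates 1 to 4. Its log2 change was -0.28 ± 0.26 (95% interval -0.86 to 0.29, adjusted p = 0.523). Tlr1, which pairs with TLR2 to bind PAM3CSK4, had 41.3, 130, 65.7 and 28.7 CPM with PAM3CSK4, against 40.3, 45.5, 26.7 and 28.5 CPM with vehicle. PAM3CSK4 replicate 2 was the high point, and the log2 change was 0.70 ± 0.39 (95% interval -0.15 to 1.55, adjusted p = 0.286), or 0.31 without that library. Tlr6, the other partner of TLR2, had 8.32, 18.6, 13.1 and 7.64 CPM with PAM3CSK4, against 8.72, 10.8, 15.3 and 8.64 CPM with vehicle (log2 change 0.08, 95% interval -0.58 to 0.73). The sum of Tlr1 and Tlr6 was tested as well. It averaged 78.3 ± 49.99 CPM with PAM3CSK4 and 46.1 ± 8.37 CPM with vehicle (SD, n = 4 each), with a log2 change of 0.56 ± 0.37 and an adjusted p of 0.351.

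The remaining surface receptors did not pass either. Tlr4, the lipopolysaccharide receptor, had 15.9, 54.6, 21.9 and 23.5 CPM in PAM3CSK4 replicates 1 to 4, against 19.1, 33.9, 31.5 and 16.1 CPM in vehicle replicates 1 to 4 (log2 change 0.11, 95% interval -0.69 to 0.90). Tlr5, the flagellin receptor, had 1.45, 2.16, 1.32 and 1.23 CPM with PAM3CSK4, against 2.08, 2.19, 1.76 and 1.82 CPM with vehicle (log2 change -0.23, 95% interval -0.73 to 0.26). Adjusted p-values were 0.883 for Tlr4 and 0.545 for Tlr5.

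Among the other endosomal receptors the libraries of each group overlapped, and PAM3CSK4 replicate 4 was the lowest of its group in every case. Tlr7 had 10.4, 16.03, 15.6 and 2.20 CPM in PAM3CSK4 replicates 1 to 4, against 10.8, 12.3, 10.3 and 4.21 CPM in vehicle replicates 1 to 4. Tlr8 had 19.4, 53.7, 25.0 and 6.77 CPM with PAM3CSK4, against 19.2, 29.8, 23.8 and 14.97 CPM with vehicle. Both had log2 changes close to 0 (0.04 for Tlr7 and -0.03 for Tlr8), but with 95% intervals from -1.04 to 1.12 and from -1.06 to 0.99. Tlr9, the CpG DNA receptor, had 111, 122, 176 and 31.9 CPM with PAM3CSK4, against 102, 152, 121 and 156 CPM with vehicle (log2 change -0.47, 95% interval -1.40 to 0.45). Tlr13 had 58.1, 145, 71.4 and 27.5 CPM with PAM3CSK4, against 37.9, 83.9, 70.1 and 37.9 CPM with vehicle (log2 change 0.24, 95% interval -0.71 to 1.19). Without PAM3CSK4 replicate 4, the log2 change was 0.59 for Tlr7, 0.46 for Tlr8, 0.03 for Tlr9 and 0.64 for Tlr13, none past the threshold. The 7 markers of plasmacytoid dendritic cells, which are known for Tlr7 and Tlr9, summed to 60.5 to 416 CPM with PAM3CSK4 and 57.9 to 114 CPM with vehicle, and Siglech, Ly6d and Cox6a2 of them passed the test as higher. Their part in these values was not tested.

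The spread among PAM3CSK4 libraries ran the same way across most members. Replicate 2 held the highest value of its group for 8 of the 10 members, all but Tlr3 and Tlr9. Replicate 4 held the lowest for 9 of 10, all but Tlr4. In the vehicle group, replicate 2 was highest for 6 of 10 and no replicate was lowest for more than 4. PAM3CSK4 replicate 2 also held the highest sum of the 9 macrophage markers (1802 CPM, against 279 CPM at the lowest of its group), and replicate 4 the lowest dendritic cell sum, and the part of either in the spread was not tested.

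The 5 surface genes summed to 161 ± 80.7 CPM with PAM3CSK4 and 138 ± 30.7 CPM with vehicle, and the 5 endosomal genes to 226 ± 119 CPM with PAM3CSK4 and 234 ± 47.2 CPM with vehicle (SD, n = 4 each). The endosomal share of the total was 56.3% ± 11.2 with PAM3CSK4 and 63.0% ± 3.17 with vehicle. The median log2 change was 0.08 over the surface group and -0.03 over the endosomal group, beside 0.20 over all genes tested. Relative to that shift, removed by centring each library on its median, the log2 changes of Tlr4, Tlr6 and Tlr7 turned negative (-0.11, -0.14 and -0.18) and that of Tlr3 was -2.18.

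Between the resting populations the family differed far more widely. Macrophages held Tlr3 at a level 117 times that of monocytes by the ratio of means and 7 other receptors at lower levels, while Tlr1 and Tlr4 did not pass the test. Of the 10 members, 8 were called, 1 higher (12.8% of all 12188 genes tested were called higher) and 7 lower (7.42% of all genes), against 20.2% of all genes called in either direction. Over all genes 63.4% of calls were higher, and 73.3%, 51.3% and 44.8% with rescaling, median centring and quantile normalization. The same 8 had groups that did not overlap, which 34.2% of all genes had, 20.4% with macrophages higher and 13.8% with macrophages lower. The median log2 change was -1.03 over the surface group and -1.17 over the endosomal group, beside 0.10 over all genes tested.

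Tlr3 had 58.0, 127 and 27.5 CPM in macrophage replicates 1 to 3, against 0.884, 0.581 and 0.356 CPM in monocyte replicates 1 to 3. The lowest macrophage library lay far above the highest monocyte library. The monocyte values stand for 50, 29 and 19 steps, so Tlr3 was detected in each monocyte library at a low level. The log2 change was 5.24 ± 0.45 (SE, limma, adjusted p = 2.36e-05), and it ranged from 4.69 to 6.45 over the alternatives, with the call kept in each.

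The macrophage libraries also held markers of cDC1. Xcr1, a chemokine receptor that defines these cells, had 73.8, 148 and 29.1 CPM in macrophage replicates 1 to 3, against 0.0885, 1.10 and 0.188 CPM in monocyte replicates 1 to 3 (log2 change 5.64, adjusted p = 2.47e-05). Clec9a had 59.4, 161 and 28.3 CPM in macrophages, against 17.7, 19.5 and 5.68 CPM in monocytes (log2 change 2.27, adjusted p = 0.0127). Of the 6 cDC1 markers, 4 passed as higher (Xcr1, Clec9a, Cadm1 and Wdfy4), and Batf3 and Irf8 did not. All 6 and Tlr3 had the same order of macrophage libraries, with replicate 2 highest and replicate 3 lowest, an order that Tlr2 and Tlr13, which were lower in macrophages, also had. The 6 summed to 676 to 1777 CPM in macrophages and 582 to 928 CPM in monocytes, with none at 0, and their part in the Tlr3 result was not tested.

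**Figure D2:**
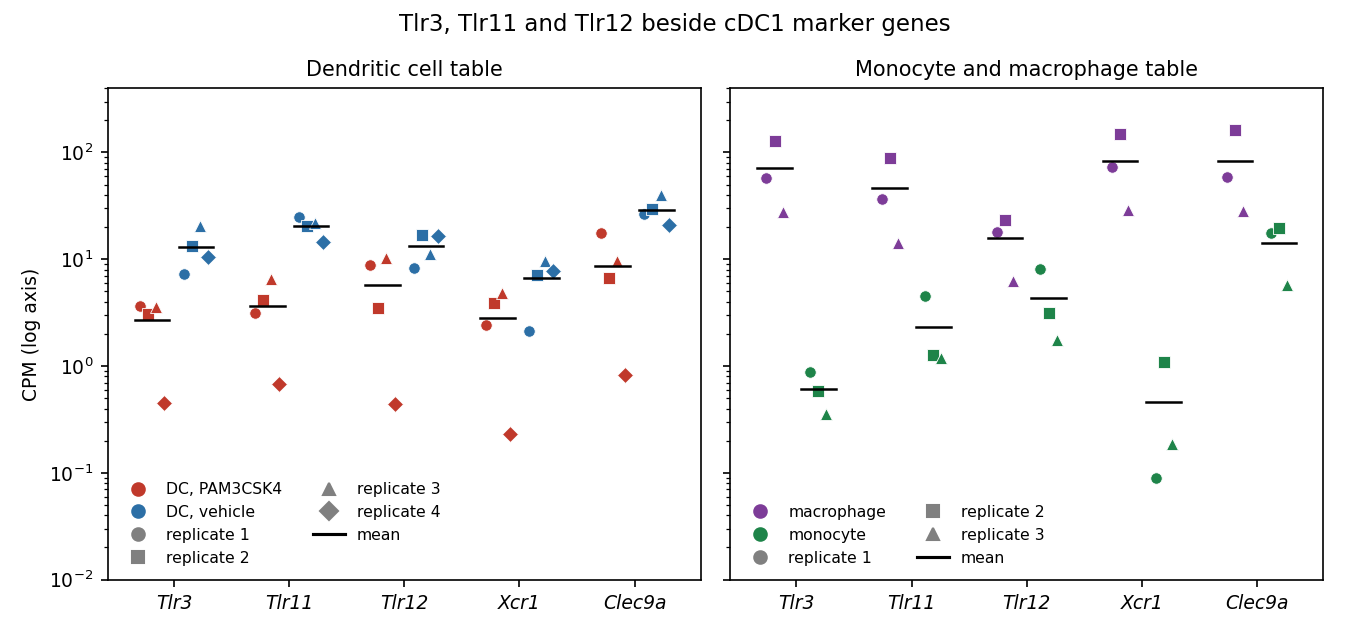
CPM (log axis) of Tlr3, Tlr11 and Tlr12 beside the cDC1 marker genes Xcr1 and Clec9a, with PAM3CSK4 left of vehicle in the left panel and macrophage left of monocyte in the right panel, and a bar at each mean. In macrophages all 5 genes are highest in replicate 2 and lowest in replicate 3, and the panels come from separately made tables.

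The other nucleic acid receptors were lower in macrophages. Tlr8 had 4.88, 2.49 and 10.7 CPM in macrophage replicates 1 to 3, against 43.8, 60.2 and 42.0 CPM in monocyte replicates 1 to 3 (log2 change -2.98 ± 0.39, adjusted p = 0.000257). Tlr13 had 18.5, 27.8 and 17.9 CPM in macrophages, against 75.0, 122 and 74.6 CPM in monocytes (log2 change -2.02 ± 0.28, adjusted p = 0.000372). Both calls held in every alternative. Tlr7, the X-linked neighbour of Tlr8, had 11.2, 8.96 and 14.4 CPM in macrophages, against 25.5, 34.1 and 17.7 CPM in monocytes (log2 change -1.07 ± 0.31, adjusted p = 0.0272). Its call was lost without macrophage replicate 1 (adjusted p = 0.0944), macrophage replicate 2 (0.114) or monocyte replicate 2 (0.051).

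Tlr9 had 21.6, 26.8 and 32.1 CPM in macrophage replicates 1 to 3, against 107, 36.4 and 57.4 CPM in monocyte replicates 1 to 3. The groups did not overlap, but the highest macrophage library lay close to the lowest monocyte library. The log2 change was -1.17 ± 0.35 (limma, adjusted p = 0.0344), and the call was lost without macrophage replicate 1 (0.162), macrophage replicate 2 (0.111), monocyte replicate 1 (0.118) or monocyte replicate 3 (0.0572). It was also lost with values rescaled to a common total (0.0788) or quantile normalized (0.0594). Tlr9 is known to be expressed in B cells. Their 6 markers summed to 68.8 to 684 CPM in macrophages and 9.35 to 12.3 CPM in monocytes, highest in macrophage replicate 3. That library held the highest macrophage value for 6 of the 10 members, Tlr9 among them. It also held the highest macrophage sum of the 7 plasmacytoid dendritic cell markers (304 CPM, against 125 and 87.7 CPM in replicates 1 and 2). In monocytes these summed to 55.3 to 130 CPM. Of these markers, Ccr9 and Ly6d passed as higher in macrophages (limma adjusted p = 0.000343 and 0.00521). Siglech passed as lower, with a mean of 0.744 CPM in macrophages and 5.94 CPM in monocytes (0.00479). Bst2 (0.994), Tcf4 (0.567) and Spib (0.454) did not pass, and Cox6a2 was too low to be tested. The sort had gated against the B cell marker B220, and the part of B cell or plasmacytoid dendritic cell RNA in the Tlr9 values was not tested.

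Among the surface receptors, Tlr2 had 14.2, 14.7 and 13.5 CPM in macrophage replicates 1 to 3, against 51.3, 45.5 and 38.4 CPM in monocyte replicates 1 to 3. Its standard error was the smallest of the 10 members, and the log2 change of -1.59 ± 0.24 (limma, adjusted p = 0.000649) kept its call in every alternative. Tlr5 had 0.0898, 0.279 and 0.798 CPM in macrophages, against 5.45, 3.83 and 7.67 CPM in monocytes (log2 change -2.25 ± 0.33, adjusted p = 0.000508). The macrophage values of Tlr5 stand for 3, 19 and 60 steps and those of monocytes for 308, 191 and 409. Tlr4 did not pass, with 24.8, 15.9 and 25.7 CPM in macrophages against 18.5, 26.0 and 16.8 CPM in monocytes (log2 change 0.11, 95% interval -0.52 to 0.73, adjusted p = 0.858).

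Tlr6 had 5.88, 7.78 and 6.78 CPM in macrophage replicates 1 to 3, against 11.6, 21.0 and 13.3 CPM in monocyte replicates 1 to 3 (log2 change -1.03 ± 0.30, adjusted p = 0.0303). Its call was lost without any one of the macrophage replicates (adjusted p = 0.114, 0.0636 and 0.0758 for replicates 1 to 3) or without monocyte replicate 3 (0.0712). Tlr1 had 4.86, 7.995 and 13.8 CPM in macrophages, against 18.97, 18.8 and 12.5 CPM in monocytes, and the groups overlapped through macrophage replicate 3 and monocyte replicate 3. Its log2 change of -0.93 ± 0.36 did not pass (adjusted p = 0.0934), and did without macrophage replicate 3 (0.0275). Summed, the pair averaged 15.7 ± 4.94 CPM in macrophages and 32.1 ± 7.11 CPM in monocytes (SD, n = 3 each), with a log2 change of -1.01 ± 0.30 (limma, adjusted p = 0.0309). With no filter on low values, the adjusted p was 0.0646 for Tlr6, 0.0657 for Tlr7 and 0.109 for Tlr9, and with rescaling to a common total it was 0.0729 for Tlr6.

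**Figure D3:**
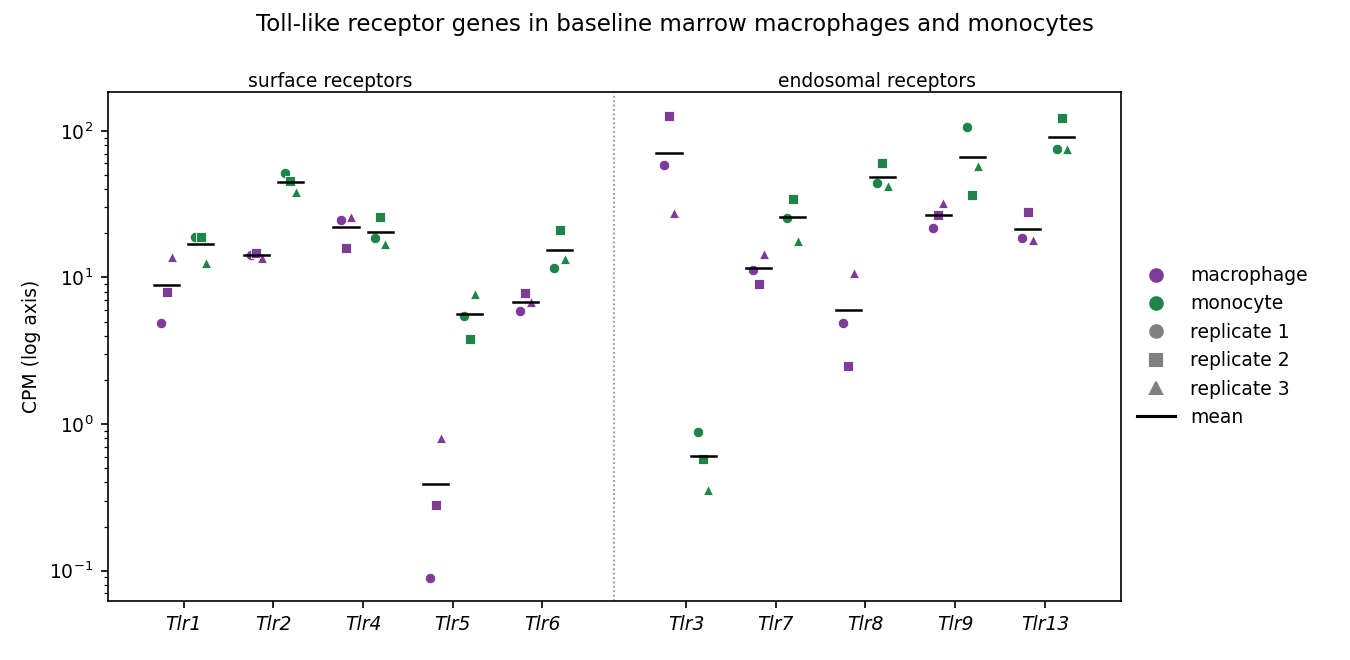
CPM (log axis) of the 10 receptor genes at baseline, with macrophage libraries left of monocyte libraries, marker shapes for replicates and a bar at each mean. Tlr3 lies above 27 CPM in macrophages and below 1 CPM in monocytes, and 7 other genes lie lower in every macrophage library than in any monocyte library.

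**Figure D4:**
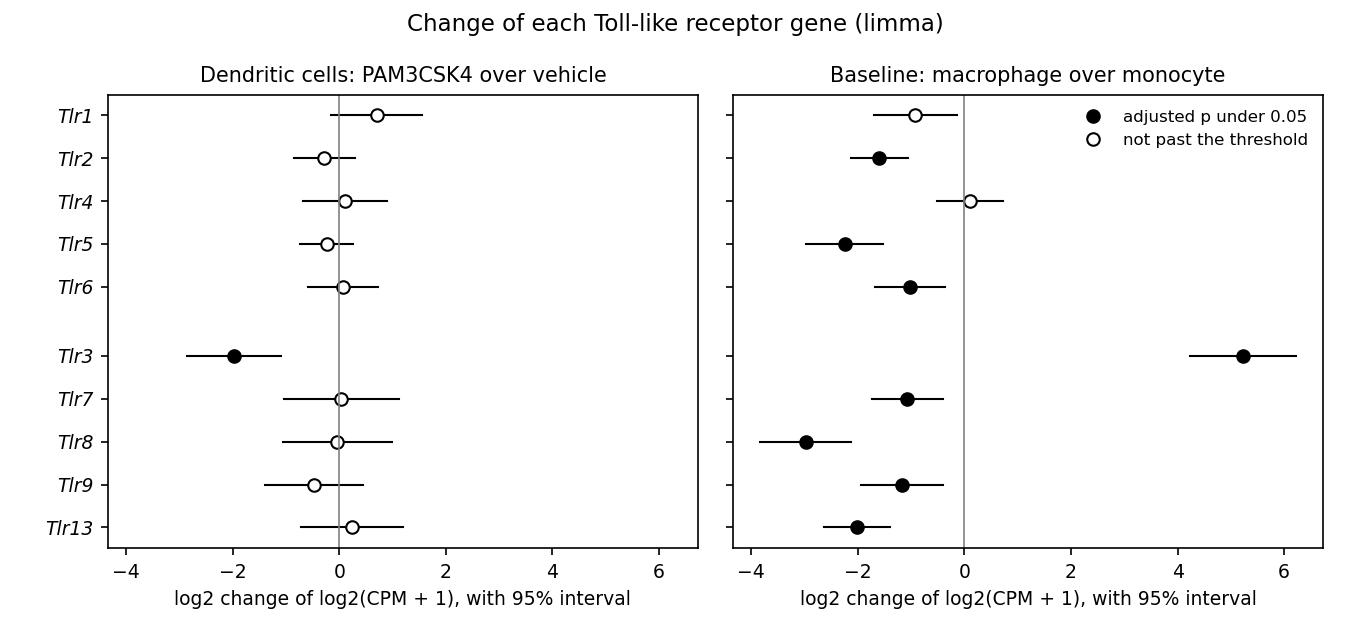
Log2 change of each receptor gene with its 95% interval, for PAM3CSK4 over vehicle in dendritic cells and for macrophages over monocytes, with filled points where the adjusted p is under 0.05. Tlr3 is the filled point at -1.97 on the left and at 5.24 on the right, and 7 further points on the right are filled below 0.

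Divided by transcript length, the order of the receptors differed between the groups. These levels are CPM per kilobase of 1 transcript a gene. In dendritic cells the values of Tlr1, Tlr3, Tlr6, Tlr7 and Tlr8 may hold part of the reads of the gene. Their places in the dendritic cell orders may therefore depend on how reads were assigned, which was not tested. Vehicle dendritic cells held Tlr9 at 38.1 ± 7.43, above Tlr2 at 21.4 ± 5.93 with no overlap between libraries (SD, n = 4), and then Tlr13, Tlr1, Tlr8, Tlr4, Tlr6, Tlr3, Tlr7 and Tlr5 at 0.614 ± 0.0638. The steps from Tlr1 to Tlr8 and from Tlr7 to Tlr5 were also free of overlap, and the other neighbours overlapped. With PAM3CSK4 the order began with Tlr9 at 31.7 ± 17.1 and Tlr1 at 21.9 ± 14.9 and ended with Tlr3 at 0.612 ± 0.345 and Tlr5 at 0.481 ± 0.133, and every pair of neighbours overlapped.

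In macrophages the order on the same scale began with Tlr3 at 16.1 ± 11.6 CPM per kilobase, Tlr9 at 7.71 ± 1.51 and Tlr4 at 5.43 ± 1.33, and ended with Tlr5 at 0.122 ± 0.115 (SD, n = 3). Ranges of neighbours did not overlap between Tlr2 and Tlr7 or between Tlr8 and Tlr5. In monocytes it began with Tlr13 at 22.3 ± 6.74, Tlr9 at 19.2 ± 10.4, Tlr2 at 14.96 ± 2.15 and Tlr8 at 14.2 ± 2.91, which overlapped one after the other, and ended with Tlr5 at 1.77 ± 0.603 and Tlr3 at 0.138 ± 0.0601. By the mean, Tlr3 was thus the first of 10 in macrophages and the last in monocytes. In macrophages its libraries (6.25 to 28.9) overlapped those of Tlr9 (6.20 to 9.23). In monocytes they lay below all those of Tlr5. Dendritic cell levels come from another table, in which reads were assigned to several members in another way, so they were not tested against macrophages or monocytes.

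The surface genes summed to 52.4 ± 7.30 CPM in macrophages and 103 ± 13.4 CPM in monocytes, and the endosomal genes to 137 ± 49.3 CPM in macrophages and 232 ± 35.0 CPM in monocytes (SD, n = 3 each). The endosomal share of the total was 71.0% ± 8.92 in macrophages and 69.2% ± 1.06 in monocytes. Its composition differed, since Tlr3 had a mean of 70.9 CPM in macrophages and 0.607 CPM in monocytes.

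The further mouse receptors, Tlr11 and Tlr12, which bind profilin of Toxoplasma in endosomes, were looked at as relatives. In dendritic cells Tlr11 had 3.12, 4.15, 6.54 and 0.674 CPM in PAM3CSK4 replicates 1 to 4, against 25.1, 20.5, 22.0 and 14.7 CPM in vehicle replicates 1 to 4. Tlr11 fell with a log2 change of -2.39 ± 0.40 (limma, adjusted p = 0.00782) and held its call without any one library (adjusted p up to 0.0436), but not with no filter on low values (0.129). Tlr12 averaged 5.76 ± 4.59 CPM with PAM3CSK4 and 13.2 ± 4.23 CPM with vehicle (SD, n = 4 each, log2 change -1.41, adjusted p = 0.142).

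In macrophages Tlr11 had 36.4, 88.6 and 14.2 CPM in replicates 1 to 3, against 4.53, 1.26 and 1.18 CPM in monocytes (log2 change 3.62 ± 0.56, adjusted p = 0.000734, kept in every alternative). Tlr12 had 18.1, 23.5 and 6.26 CPM in macrophages, against 8.08, 3.16 and 1.74 CPM in monocytes (log2 change 1.68 ± 0.50, adjusted p = 0.0336). The Tlr12 call was lost without macrophage replicate 1 (0.17) or 2 (0.181) or monocyte replicate 2 (0.076) or 3 (0.104). Both genes had the macrophage library order of Tlr3, the cDC1 markers, Tlr2 and Tlr13.

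Genes with the profile most like that of Tlr3 were found by the root mean square difference of centred log2 values. Over the 8 dendritic cell libraries and 9200 genes these were Gcsam (0.24), Rtl8c (0.28) and Stxbp6 (0.28). Over the 6 macrophage and monocyte libraries and 10047 genes they were Gpr141b (0.36), Gcsam (0.37) and Xcr1 (0.41). Gcsam, a signalling protein of germinal centre B cells, stood in both sets, with 1.83 CPM under PAM3CSK4 against 8.43 CPM under vehicle and 28.7 CPM in macrophages against 0.134 CPM in monocytes.

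The nearest profiles to the members lower in macrophages were sought over the same 6 libraries. The nearest to Tlr13 was Ccr2 (0.12), the chemokine receptor of inflammatory monocytes, with a mean of 155 CPM in macrophages and 694 CPM in monocytes, followed by Nostrin and Rnd3. The nearest to Tlr2 were Arhgap26 (0.13), Ehd4 and Sap30, to Tlr5 Ms4a8a (0.19), Pi16 and Ifi30, and to Tlr8 Hpse (0.22), Plekhg1 and Ms4a4a. The nearest to Tlr6 were Fam49b (0.07), Ccdc88a and Clec12a, to Tlr7 Cd33 (0.16), Gapdh and Arid5b, and to Tlr9 Tspan17 (0.18), Pdzd4 and Metrnl.

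Co-receptors that help surface receptors bind ligand were tested as a list of 6. In dendritic cells none of the 6 passed, beside 5.12% of all genes called. Ly86, the partner of the TLR4-like receptor CD180, averaged 58.2 ± 23.0 CPM with PAM3CSK4 and 110 ± 22.6 CPM with vehicle (log2 change -0.99, adjusted p = 0.0803), and passed without PAM3CSK4 replicate 1 (0.0316) and under the 3 other scalings (0.0404 to 0.0434). Cd14, which hands lipopolysaccharide to TLR4, had a log2 change of 0.95 (adjusted p = 0.227). Ly96, the MD-2 subunit of the TLR4 complex, had an adjusted p of 0.212 and Lbp, the lipopolysaccharide-binding protein, one of 0.301.

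In macrophages against monocytes, 1 co-receptor rose and 3 fell of the 6, beside 12.8% of all genes called higher and 7.42% lower. Cd36, a scavenger receptor that passes lipids to TLR2, averaged 34.4 ± 18.0 CPM in macrophages and 7.99 ± 4.39 CPM in monocytes (SD, n = 3 each, log2 change 2.02, limma adjusted p = 0.00666, 0.0542 without macrophage replicate 2). Ly86 fell to 22.1 ± 14.0 CPM in macrophages, against 83.4 ± 22.1 CPM in monocytes (log2 change -2.01, adjusted p = 0.00301). Cd14 fell to 1.51 ± 0.156 CPM in macrophages, against 5.98 ± 3.91 CPM in monocytes (adjusted p = 0.0314), a call lost without any library but monocyte replicate 2 (0.0525 to 0.119). Lbp also fell (log2 change -1.14, adjusted p = 0.0218), a call lost without macrophage replicate 2 (0.0936) or 3 (0.0545) or monocyte replicate 3 (0.0746).

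Chaperones and trafficking factors carry receptors out of the endoplasmic reticulum or between compartments, and 9 of the 10 listed were tested. In dendritic cells 1 of 9 passed, Slc15a3, a peptide transporter of endolysosomes, which rose to 119 ± 77.4 CPM with PAM3CSK4, against 27.9 ± 6.34 CPM with vehicle (SD, n = 4 each, log2 change 1.81, limma adjusted p = 0.0333), beside 2.82% of all genes called higher. That call was lost without PAM3CSK4 replicate 2 (0.0664) or 3 (0.0816) or any vehicle replicate (0.0659 to 0.0981). Rab7b, a GTPase of late endosomes, had an adjusted p of 0.137 (0.0458 without PAM3CSK4 replicate 2), the chaperone Hsp90b1 (gp96) one of 0.16 and Cnpy4 one of 0.219. In macrophages 1 of 9 rose and 2 fell, beside 12.8% and 7.42% of all genes. Unc93b1, which delivers the nucleic acid receptors to endosomes, fell to 120 ± 10.6 CPM in macrophages, against 281 ± 93.4 CPM in monocytes (log2 change -1.17, adjusted p = 0.0122, lost without macrophage replicate 1 at 0.0642 or 2 at 0.0515). Slc15a3 fell to 5.96 ± 3.20 CPM in macrophages, against 25.4 ± 10.4 CPM in monocytes (adjusted p = 0.00444). Rab7b rose to 50.9 ± 32.0 CPM in macrophages, against 13.9 ± 0.782 CPM in monocytes (adjusted p = 0.0161, lost without macrophage replicate 1 at 0.0974 or 2 at 0.0835).

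Endosomal proteases that cut the nucleic acid receptors into their active form, and nucleases that set the supply of their ligands, made a list of 12. In dendritic cells 2 of 12 passed, both higher, beside 2.82% of all genes called higher. Dnase1l3, a DNA-degrading enzyme, had 25.1, 56.4, 130 and 14.9 CPM in PAM3CSK4 replicates 1 to 4, against 4.86, 5.43, 4.70 and 4.51 CPM in vehicle replicates 1 to 4 (log2 change 2.84, limma adjusted p = 0.0104, 0.0511 without vehicle replicate 1). The protease gene Ctsl rose to 44.8 ± 18.8 CPM with PAM3CSK4, against 12.7 ± 3.38 CPM with vehicle (adjusted p = 0.00839). In macrophages 1 of 12 rose and 5 fell, beside 12.8% and 7.42% of all genes. Dnase1l3 had 14.1, 31.9 and 32.4 CPM in macrophage replicates 1 to 3, against 0.442, 0.361 and 0.0564 CPM in monocyte replicates 1 to 3 (log2 change 4.32, adjusted p = 2.04e-05). The exonuclease gene Pld4 fell to 64.3 ± 7.96 CPM in macrophages, against 308 ± 87.4 CPM in monocytes (adjusted p = 0.000163), and the protease gene Ctss to 91.3 ± 32.6 CPM, against 345 ± 95.5 CPM (0.000807). Grn, the gene of progranulin, fell by 1.69 on the log2 scale (0.000831), Ctsb by 1.15 (0.0127, 0.0599 without macrophage replicate 2) and Ctsk by 2.23 (0.0272). The Ctsk call was lost without macrophage replicate 1 (0.145) or 2 (0.157) or monocyte replicate 2 (0.0682).

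Adaptors and the first kinases of the pathway made a list of 14, of which 13 were tested. In dendritic cells 1 rose and 1 fell, beside 2.82% and 2.29% of all genes. Irak3, the gene of IRAK-M, which restrains receptor signalling, averaged 66.1 ± 51.8 CPM with PAM3CSK4 and 9.52 ± 3.14 CPM with vehicle (SD, n = 4 each, log2 change 2.45, limma adjusted p = 0.0105). Irak2, a kinase of the MyD88 complex, fell to 18.0 ± 4.29 CPM with PAM3CSK4, against 38.1 ± 9.73 CPM with vehicle (log2 change -1.03, adjusted p = 0.0386), a call lost without any library but PAM3CSK4 replicate 1 and vehicle replicate 3 (0.0538 to 0.118). In macrophages 1 rose and 2 fell, 3 of 13 beside 20.2% of all genes called. Ticam2, the TLR4 adaptor TRAM, fell to 13.3 ± 2.08 CPM in macrophages, against 62.9 ± 6.16 CPM in monocytes (log2 change -2.17, adjusted p = 8.81e-05). Myd88 fell by 0.89 on the log2 scale (0.0291), a call lost without macrophage replicate 2 (0.0977) or 3 (0.088) or monocyte replicate 1 (0.0995) or 3 (0.134). Sigirr, an inhibitory member of the receptor superfamily, rose by 1.25 (0.013, lost without macrophage replicate 1 at 0.0743 or 2 at 0.0505).

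Beside all 5 lists, the median log2 change in dendritic cells was -1.90 for Tlr11 and Tlr12, 0.28 for the co-receptors, 0.04 for chaperones, 0.18 for proteases and nucleases and -0.03 for adaptors, against 0.20 over all genes tested. In macrophages against monocytes it was 2.65, -0.65, -0.56, -0.71 and -0.25 in the same order, against 0.10 over all genes tested. With no filter on low values, none of the calls made in dendritic cells for genes of these lists held (adjusted p = 0.108 to 0.23), and in macrophages those of Tlr12 (0.136), Cd36 (0.0538), Lbp (0.0628), Cd14 (0.105), Rab7b (0.0823) and Ctsk (0.133) did not. Tlr12 (0.0738 and 0.134) and Rab7b (0.0535 and 0.0591) also missed the threshold with median centring and quantile normalization, and Cd14 (0.0514) and Ctsk (0.0567) with rescaling.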

How the data were processed

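Bulk RNA sequencing values of the 14 libraries were read from 2 tables that the authors deposited under the name FPKM. Their low values are multiples of 1 step common to genes of all lengths (65.9% to 68.6% of values up to 50 steps within 0.05 of a step for dendritic cells, 87.6% to 90.5% in the other table), so the deposited unit was taken as CPM. The submitters' processing notes name mm10, STAR 2.5.3a and Partek, with no role for either tool. Strand is not given either, so antisense reads cannot be told apart. RNA was ribosome-depleted, per the labels' protocols. Groups and replicate numbers came from the sample titles. In the table of monocytes and macrophages, 3 columns whose names point to dendritic cells match no single sample and were not used. Each table was tested with limma 3.58.1 in R 4.3.3 on log2(CPM + 1), with an intensity trend and Benjamini-Hochberg adjustment over all genes that reached 1 CPM in 4 libraries (dendritic cells) or 3 (macrophages against monocytes). The threshold was an adjusted p of 0.05. All 10 members were named, and of each list the genes past the threshold, or, where more than 6 or fewer than 2 passed, the first 4 by p. Nearest profiles were taken among genes with assigned symbols whose higher group averaged 5 CPM or more, 3 for each member past the threshold. Members, lists and tests were chosen with earlier results of these data known. Alternatives were another pseudocount (0.1), filter, scaling and trend setting, a replicate block and each library left out.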

Additional observations from a re-analysis of the deposited data

How the results depend on the processing

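The PAM3CSK4 comparison called 582 genes and 32 with no filter on low values, 166 with genes above the lowest value in at least 1 library (an alternative added after seeing the data, like the sum of Tlr1 and Tlr6), 976 with a replicate block and 184 to 1008 with a library left out. Its receptor genes called numbered 1, and 0 with no filter and with genes above the lowest value, and ranged from 0 to 1 with a library left out, 0 without vehicle replicate 2 or 3. In macrophages against monocytes 8 receptor genes were called, 5 with no filter and 5 to 8 with a library left out, 5 without macrophage replicate 1 or 2. The count of 2468 genes there stayed within 1.5 times. Calls of Tlr2, Tlr3, Tlr5, Tlr8 and Tlr13 held there in every alternative. The filter alternatives add genes to the adjustment and refit the intensity trend with those genes, and the cause of the shifts was not tested.

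The share of calls that were higher with PAM3CSK4 was 31.2% with no filter and 66.5% with the block. Signs turned for uncalled genes. With rescaling, median centring and quantile normalization, log2 changes with PAM3CSK4 were -0.035, -0.11 and -0.12 for Tlr4, -0.058, -0.14 and -0.13 for Tlr6 and -0.10, -0.18 and -0.16 for Tlr7. With a library left out they ranged from -0.24 to 0.33 for Tlr4, -0.15 to 0.24 for Tlr6, -0.26 to 0.59 for Tlr7, -0.48 to 0.46 for Tlr8, -0.78 to 0.034 for Tlr9 and -0.15 to 0.64 for Tlr13. Tlr4 in macrophages against monocytes was -0.016 with median centring and ranged from -0.016 to 0.32 with a library left out.

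The labels do not say whether replicate numbers pair the samples, and the residuals did not settle it. Same-numbered residuals correlated at 0.03, 0.29, -0.12 and 0.30 for dendritic cells. There PAM3CSK4 replicates 2 and 4 correlated best with the vehicle library of their number, and replicates 1 and 3 did not. For macrophages and monocytes the correlations were 0.18, 0.08 and 0.12. Each macrophage library correlated best with the monocyte library of its number, a hint from the data only. With the replicate block 1 and 7 receptor genes were called, and Tlr9 had an adjusted p of 0.051 in macrophages. Tlr5 in macrophages rests on 3 to 60 steps a library, which limits its precision.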
